A study of Mus musculus with 3 samples.

Results

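Apolipoproteins are the protein shell of the particles that carry fat and cholesterol in blood. The 10 genes described here, Apoe, Apoc1, Apoc2, Apoc3, Apoa1, Apoa2, Apoa4, Apoa5, Apob and Apoh, were taken by name among 21938 protein-coding genes on 21 chromosomes. Their promoters, gene bodies and surroundings were read in 3 lists of regions enriched by chromatin immunoprecipitation sequencing (ChIP-seq), 1 for the histone mark H3K27me3 1 for RNA polymerase II that carries a phosphate at serine 5 of its C-terminal repeats (Pol2-S5p) and 1 for the form with that phosphate at serine 7 (Pol2-S7p). All 3 libraries came from F123, a male mouse embryonic stem cell (mESC) line from an F1 cross between S129/Jae and Cast, grown on feeder fibroblasts and passaged off them before harvest, with no treatment. Each mark had 1 library, so no value below has a replicate, no groups of samples were compared and no test was made. The lists are not split by parental genome, and library depth was not used here because the lists carry no read counts.

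H3K27me3 is laid down by Polycomb repressive complex 2 and marks developmental genes that a cell keeps silent. Pol2-S5p accompanies polymerase close to the start of genes and is also found at Polycomb targets, whereas Pol2-S7p follows productive transcription. Most apolipoproteins are made by the hepatocytes of the liver and the enterocytes of the gut, and before birth by the visceral endoderm of the yolk sac, under nuclear receptors such as HNF4A, while Apoe is also made by macrophages, astrocytes and many other cells. Several of these genes lie side by side, Apoe with Apoc1, Apoc4 and Apoc2 on mouse chromosome 7, and Apoa1 with Apoc3, Apoa4 and Apoa5 on chromosome 9.

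A promoter was counted as carrying a mark when an enriched region touched the 2 kb window centred on its transcription start site (TSS), in mm10. H3K27me3 was found at 6 of the 10 apolipoprotein promoters, against 37.3% of 17639 protein-coding promoters whose window overlaps that of no other gene. Pol2-S5p was found at 7 of the 10, against 64.9% of protein-coding promoters. Pol2-S7p was also found at 7 of the 10, against 54.7%. The 10 genes fell into 3 promoter states. Apoe, Apoc1, Apoc2 and Apoa2 (4 of 10) were Active, which means both polymerase marks and no H3K27me3, a state of 31.6% of protein-coding promoters. Apoa1, Apoa5 and Apoh (3 of 10) had all 3 marks, the Polycomb-Active (PRCa) state of 22.4% of protein-coding promoters. Apoc3, Apoa4 and Apob (3 of 10) had H3K27me3 and no polymerase mark, as did 6.68% of protein-coding promoters. No apolipoprotein promoter was in the Polycomb-repressed (PRCr) state, H3K27me3 with Pol2-S5p and without Pol2-S7p, which 8.02% of protein-coding promoters held, and none was Inactive, without any mark, which 27.8% held. The count of Inactive apolipoprotein genes was 2 of 10 with regions above the median score only (against 44.9%), 7 of 10 without regions over 10 kb (against 58.1%), 2 of 10 without H3K27me3 regions over 10 kb (against 32.0%) and 1 of 8 at RefSeq starts. With so few genes, the counts for Pol2-S5p, Pol2-S7p, Active and PRCa are near their background. With 10 genes in 5 loci, of which the neighbours share regions, these counts are not independent of each other. Of the 10 windows, 8 overlapped that of no other gene. Apoa4 shared its window with a long noncoding RNA gene and Apoh with the protein kinase gene Prkca.

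**Figure D1:**
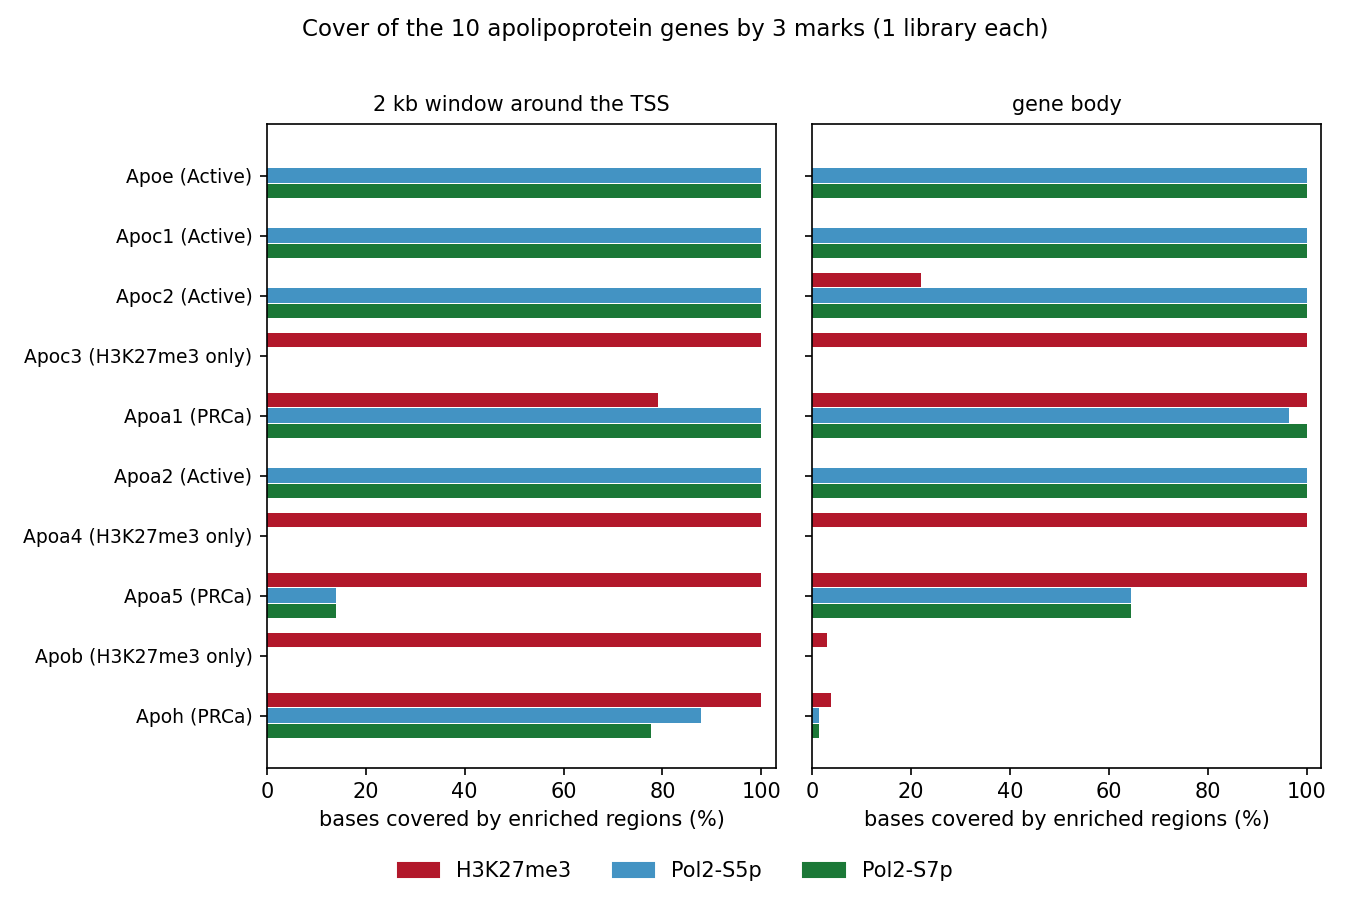
Percent of bases covered by enriched regions of H3K27me3, Pol2-S5p and Pol2-S7p in the 2 kb TSS window (left) and in the gene body (right) of each apolipoprotein gene, with the promoter state in parentheses. Bars are single values from 1 library per mark, and no bar means 0. Apoe, Apoc1 and Apoa2 had full polymerase cover and no H3K27me3, Apoc3 and Apoa4 the opposite, and Apob and Apoh were marked at the promoter with little of the body covered.

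The promoter sequences differ in the density of CpG pairs, a feature that Polycomb-bound promoters of mESCs often share. The following promoters show Apoe and 1 or more genes chosen for each other state at the starts analysed. They run from 250 bases before to 50 bases after the RefSeq start on GRCm38.p6. Each reads 5′ to 3′ along the gene, with CpG pairs in capitals. Apoe is at chr7:19699139-19699438 on the minus strand, Apoa1 at chr9:46228380-46228679, Apoa5 at chr9:46268383-46268682, Apob at chr12:7977427-7977726 and Apoh at chr11:108395047-108395346, these 4 on the plus strand.
Apoe: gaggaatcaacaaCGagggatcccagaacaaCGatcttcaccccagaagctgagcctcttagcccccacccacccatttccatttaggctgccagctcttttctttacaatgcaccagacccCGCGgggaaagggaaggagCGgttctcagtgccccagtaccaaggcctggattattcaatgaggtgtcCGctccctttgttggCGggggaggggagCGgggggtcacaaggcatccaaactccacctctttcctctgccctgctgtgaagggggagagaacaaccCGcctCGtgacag
Apoa1: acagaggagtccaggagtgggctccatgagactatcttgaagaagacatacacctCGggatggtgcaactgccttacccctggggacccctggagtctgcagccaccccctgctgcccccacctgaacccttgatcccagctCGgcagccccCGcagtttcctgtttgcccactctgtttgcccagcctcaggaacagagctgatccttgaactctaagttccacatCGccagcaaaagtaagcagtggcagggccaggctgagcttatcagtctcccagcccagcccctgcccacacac
Apoa5: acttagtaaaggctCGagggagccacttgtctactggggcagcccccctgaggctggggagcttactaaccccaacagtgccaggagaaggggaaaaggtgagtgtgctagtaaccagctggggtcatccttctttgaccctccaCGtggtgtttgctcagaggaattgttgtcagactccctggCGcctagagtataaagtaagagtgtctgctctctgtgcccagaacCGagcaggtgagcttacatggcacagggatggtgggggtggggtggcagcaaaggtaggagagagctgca
Apob: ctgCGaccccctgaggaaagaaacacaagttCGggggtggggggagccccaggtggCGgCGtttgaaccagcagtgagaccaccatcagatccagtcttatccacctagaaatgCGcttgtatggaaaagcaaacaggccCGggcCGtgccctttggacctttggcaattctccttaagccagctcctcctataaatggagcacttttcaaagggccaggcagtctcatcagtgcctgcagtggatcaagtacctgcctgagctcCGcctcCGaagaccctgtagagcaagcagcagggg
Apoh: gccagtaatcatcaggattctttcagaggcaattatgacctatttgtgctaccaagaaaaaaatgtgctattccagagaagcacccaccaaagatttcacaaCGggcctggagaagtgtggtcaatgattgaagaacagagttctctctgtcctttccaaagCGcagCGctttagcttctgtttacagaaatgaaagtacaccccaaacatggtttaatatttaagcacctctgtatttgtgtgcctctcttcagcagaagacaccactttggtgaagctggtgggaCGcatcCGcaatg
These 300 bases held 10 CpG pairs in Apoe, 4 in Apoa1, 4 in Apoa5, 9 in Apob and 5 in Apoh. The RefSeq start matched the one analysed exactly for Apoe, lay within 50 bp of it for Apoa1 and Apob and 445 bp from it for Apoa5, and for Apoh it lay 51.9 kb downstream, as described with that gene. At the RefSeq starts printed, Apoa5 held H3K27me3 alone and Apoh no mark, so these sequences do not show PRCa promoters. The CpG ratios that follow are for the starts analysed.

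In the 2 kb windows, the ratio of observed CpG pairs to the number expected from C and G content was 0.361 at Apoe, 0.319 at Apoc1, 0.137 at Apoc2 and 0.179 at Apoa2, against a median of 0.493 over 5569 Active protein-coding promoters. Among the PRCa genes it was 0.167 at Apoa1, 0.200 at Apoa5 and 0.739 at Apoh, against a median of 0.572 over 3959 PRCa protein-coding promoters. Among those with H3K27me3 and no polymerase it was 0.141 at Apoc3, 0.136 at Apoa4 and 0.330 at Apob, against a median of 0.269 over 1179 promoters of that state. Apoh alone was above the median of its state for PRCa, and Apob for H3K27me3 without polymerase. The ratios of Apoa1 and Apoa5 lay below the lower quartile of PRCa promoters (0.382), and those of Apoc3 and Apoa4 below the lower quartile of their state (0.184).

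Short motifs were searched on both strands of the 300 bases for 8 apolipoprotein genes, all but Apoc1 and Apoc3. The TATA box letters TATAAA occurred at Apoa2, Apoa5 and Apob (3 of 8), against 13.6% of 32851 promoters. That background exceeds the 21938 protein-coding genes, so it is not 1 promoter per coding gene, whereas each apolipoprotein gene gave 1. All motif shares here use it. Counting bases before the start as negative, they began at position -56 at Apoa5, -60 at Apob and -212 at Apoa2. The nuclear receptor half-site AGGTCA occurred at Apoc2 and Apoh (2 of 8), against 16.3% of promoters. CCAAT occurred at Apoa2 (1 of 8, against 37.4%) and the letters GTTAAT at Apoc2 (1 of 8, against 7.10%). The GC box letters GGGCGG and the HNF4 site letters CAAAGTCCA occurred at 0 of 8, against 35.7% and 0.475% of promoters. No match overlapped another. A match is a description of letters in this window and no measure of binding.

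Apoe encodes apolipoprotein E, the ligand by which remnant particles are taken up into cells. The gene (ENSMUSG00000002985.16) spans 19696109 to 19699188 on chromosome 7, on the minus strand, with its TSS at 19699188. Pol2-S5p and Pol2-S7p covered 100% of its TSS window and 100% of its body, and also all of the 10 kb before and the 10 kb after the gene. H3K27me3 covered 0% of the window, 0% of the body and 0% of those 10 kb flanks. GENCODE lists 10 starts for Apoe, all within 1.56 kb of the start used, and all 10 were Active. They lie in the same polymerase regions, and the nearest H3K27me3 region is 26.0 kb from the TSS, so their windows could not differ. The state rests on called regions, and read counts were not analysed here. The state was Active in 8 of 9 other settings of window, start, overlap and region filter, and Inactive in the remaining one, in which regions over 10 kb were left out. Given these positions, the settings of window, start and overlap could not change the state.

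The polymerase regions over Apoe were among the widest of their lists. The Pol2-S5p region was 242.8 kb wide, rank 28 of 29222 by width, and the Pol2-S7p region 279.8 kb, rank 7 of 22320. At Active protein-coding promoters as a whole the median widths were 24.4 kb and 26.2 kb. By the peak finder's own score, whose unit is not stated, neither region was extreme, at 69.7% and 67.5% of the way up its list. The Pol2-S5p region held the chosen TSS of 14 protein-coding genes (9 Active, 4 PRCa and 1 PRCr) and the Pol2-S7p region those of 17 (15 Active and 2 PRCa). Full cover at Apoe is therefore cover by regions that also span its neighbours, and the lists do not give the height of the signal at Apoe within them. The genes over 1 Mb away whose 9 cover and width values were closest to those of Apoe were 2200002D01Rik, Kat6b, Chtop, Ilf2 and Ints3, at standardized distances of 0.00281 to 0.0395 among 21857 genes with a median of 4.33. Chtop, Ilf2, Ints3 and Snapin tied, with the same region widths on chromosome 3, and so do not count as separate places. All 5 genes were Active and lay in Pol2-S5p regions of 203 to 240.0 kb, which follows from choosing them by cover and width. Kat6b, for instance, a histone acetyltransferase gene, lay in 238 kb.

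The H3K27me3 region nearest to Apoe began 26.0 kb downstream of its TSS, against a median of 32.2 kb (quartiles 13.8 and 66.9 kb) over Active protein-coding promoters. It was 1.4 kb wide (chr7:19671800-19673199, score 16.4) and lay inside Apoc2, the gene of the cofactor that lipoprotein lipase needs. It covered 49 bp of the last exon of Apoc2 and otherwise mostly intron, 22.0% of the gene body in all. Repeat-masked bases made up 86.7% of this region, against a median of 21.5% over all H3K27me3 regions and of 24.0% over the 6216 regions of 2 kb or less, of which 28.7% were over 80% masked. The middle 200 bases (chr7:19672400-19672599, plus strand) show the repeat, with exact copies of a 35 bp unit in capitals.
Middle of the region: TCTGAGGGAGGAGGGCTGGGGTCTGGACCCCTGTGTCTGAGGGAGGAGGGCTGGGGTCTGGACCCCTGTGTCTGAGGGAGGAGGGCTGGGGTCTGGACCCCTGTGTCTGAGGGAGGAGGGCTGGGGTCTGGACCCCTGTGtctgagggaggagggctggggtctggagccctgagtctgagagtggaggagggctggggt
The unit occurred 13 times in exact form in the 1.4 kb, and the G+C content of the region was 68.4% with a CpG ratio of 0.0299. How reads from such a repeat were placed was not tested. The region touched the window of 1 of the 3 Apoc2 starts, the inner start at 19673920, which with 14.0% of its window under H3K27me3 would be PRCa. The start used (19677941) and the remaining one were Active.

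Apoc1, a small apolipoprotein that slows the clearance of lipoproteins, lies 6.53 kb downstream of Apoe and was Active at all 4 of its starts, with 100% of its window and body under both polymerase marks and no H3K27me3. These starts lie within 0.169 kb of the one used, under the same polymerase regions, so their states could not differ. All 6 protein-coding neighbours with a TSS within 50 kb of that of Apoe were Active, against 31.6% of protein-coding promoters. These were Clptm1, Apoc2, Gm44805, Apoc4, Apoc1 and Tomm40, the last encoding the channel of the mitochondrial import pore. All lie under the same polymerase regions as Apoe, so only H3K27me3 could set their states apart. Gm44805 and Apoc4 start at nearly the same place, 17.8 and 17.7 kb from Apoe. Wide H3K27me3 regions began beyond Tomm40, upstream of Apoe. An H3K27me3 region of 16.4 kb reached over Bcam, an adhesion molecule 71.4 kb from Apoe, and another of 76.6 kb over Cblc, a ubiquitin ligase gene, and both promoters were PRCa. These regions lie under the same Pol2-S5p region as Apoe, of which H3K27me3 covered 38.9% (94.4 kb). Of the Pol2-S7p region over Apoe, H3K27me3 covered 30.8 kb.

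**Figure D2:**
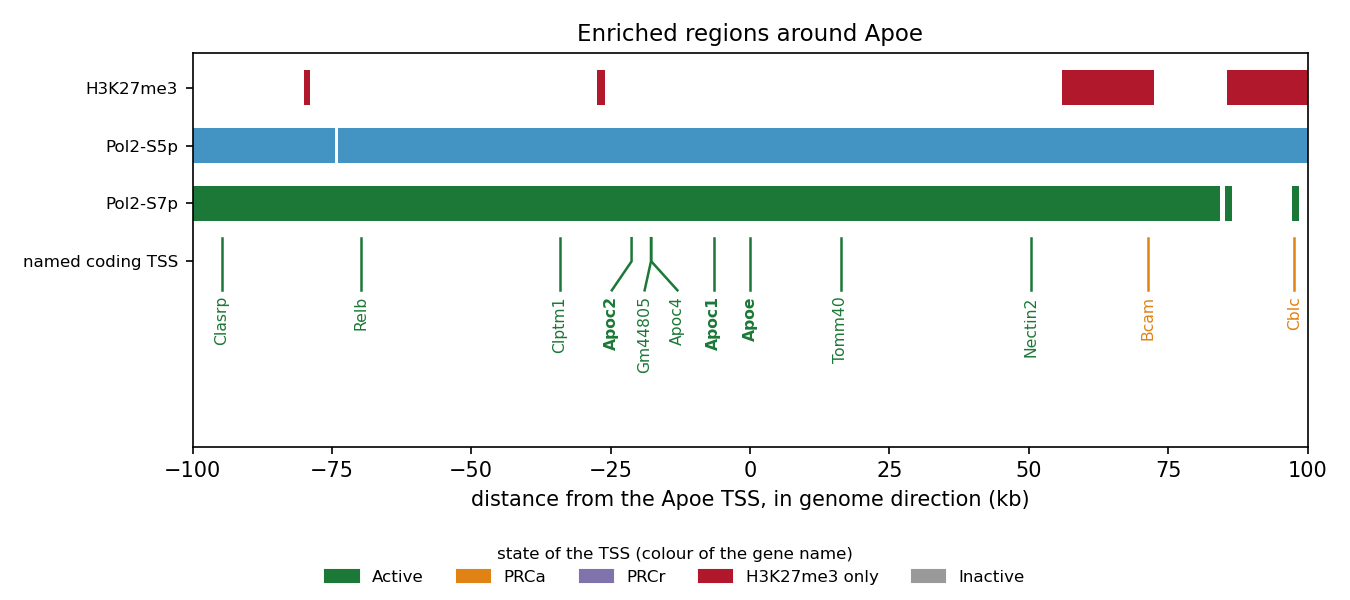
Enriched regions of H3K27me3, Pol2-S5p and Pol2-S7p within 100 kb of the Apoe TSS, and the TSSs of named protein-coding genes coloured by promoter state. The horizontal axis is distance from the Apoe TSS in kb along the genome, and Apoe reads to the left. Polymerase regions cover Apoe, Apoc1 and Apoc2 without a gap, the small H3K27me3 region lies 26.0 kb from Apoe, and PRCa promoters appear at Bcam and Cblc.

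The apolipoprotein cluster of chromosome 9 differed from that of chromosome 7 in that H3K27me3 covered all 4 of its promoters. A region of 16.0 kb (chr9:46228000-46243999, score 8.46) spanned the whole bodies of Apoa1, the main protein of high-density lipoprotein, Apoc3, an inhibitor of lipoprotein lipase, and Apoa4, a protein of intestinal particles. At PRCa protein-coding promoters the median H3K27me3 width was 16.6 kb and at those with H3K27me3 alone 22.0 kb. The cluster region was thus of a common size, and its score was at 52.3% of its list.

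Within this H3K27me3 region the polymerase marks ended early. Apoa1 (TSS 46228580, plus strand) had 79.0% of its window under H3K27me3 and 100% under each polymerase mark. H3K27me3 covered 100% of its body, Pol2-S5p 96.4% and Pol2-S7p 100%. The TSS lay 0.58 kb inside the H3K27me3 edge and 1.82 kb before the end of a Pol2-S5p region of 26.4 kb that also lies over the far end of the kinase gene Sik3. The start used for Sik3, 9.01 kb upstream and Active, is the innermost of 7, 207 kb from the first start of that gene, which was PRCa. The Pol2-S7p region of 24.2 kb ended 2.22 kb past the TSS. Only 15.0% of the H3K27me3 region lay under Pol2-S5p and 17.5% under Pol2-S7p, at the Apoa1 end. Both polymerase regions had low scores, at 30.2% and 15.1% of their lists. With regions above the median score only, Apoa1 held H3K27me3 alone, and with H3K27me3 regions over 10 kb left out it was Active.

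Apoc3 (TSS 46235636, minus strand) and Apoa4 (TSS 46240696, plus strand) had 100% of the window and 100% of the body under H3K27me3 and 0% under either polymerase mark. All 4 starts of Apoc3 and the only start of Apoa4 gave this state. The Apoc3 starts lie within 0.376 kb of the one used, inside the same H3K27me3 region, so their states could not differ. The nearest Pol2-S5p region, the one over Apoa1, ended 5.24 kb from the TSS of Apoc3 and 10.3 kb from that of Apoa4, against a median of 19.6 kb (quartiles 8.29 and 41.0 kb) over protein-coding promoters with H3K27me3 alone. Pol2-S7p ended 4.84 kb and 9.90 kb away.

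Apoa5, which promotes the breakdown of triglycerides by lipoprotein lipase, lay 40.5 kb from Apoa1 under a separate H3K27me3 region of 6.6 kb with a high score (16.7, at 89.8% of the list) that also touched the promoter of the neighbouring zinc finger gene Zpr1. H3K27me3 covered 100% of its window and body. Each polymerase mark covered only 278 bp (13.9%) of the window, from 0.722 kb past the TSS on, in the last exon, and 64.5% of the body. Those polymerase regions, of 13.6 kb for Pol2-S5p and 30.6 kb for Pol2-S7p, went on over Zpr1 (PRCa) and the splicing factor gene Bud13 (Active). Of 3959 PRCa protein-coding promoters, 3 had as little cover by both polymerase marks or less, Apoa5 among them. The start used was the one of 2 with more polymerase cover. At the other, 46268633, which is also the RefSeq start and the one printed above, the window held H3K27me3 alone. Apoa5 kept the PRCa state in 3 of 9 other settings, fewer than any other of the 10 genes.

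**Figure D3:**
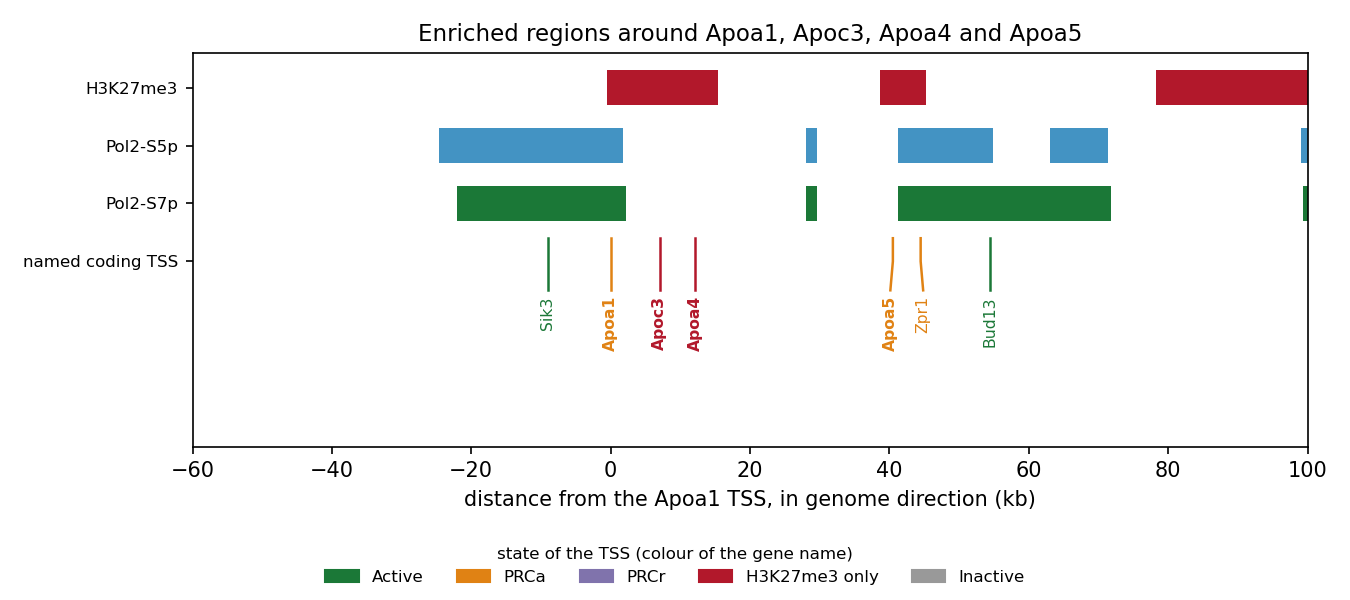
Enriched regions of H3K27me3, Pol2-S5p and Pol2-S7p around the chromosome 9 cluster, and the TSSs of named protein-coding genes coloured by promoter state. The horizontal axis is distance from the Apoa1 TSS in kb along the genome. The H3K27me3 region of 16.0 kb covers Apoa1, Apoc3 and Apoa4, polymerase regions overlap it only at Apoa1, Sik3 is drawn at its innermost start, and Apoa5 lies where a second H3K27me3 region meets the polymerase regions of Zpr1 and Bud13.

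The remaining 3 genes stand alone and differed from each other. Apoa2, the second protein of high-density lipoprotein, has its TSS at 171225054 on chromosome 1 and was Active at all 4 starts, with 100% of window and body under both polymerase marks and no H3K27me3. These starts lie within 0.037 kb of the one used, under the same polymerase regions, so their states could not differ. Apoa2 lay between H3K27me3 regions, in a polymerase stretch that runs into both. An H3K27me3 region of 34.8 kb over Pcp4l1 and Nr1i3, the nuclear receptor CAR of the liver, ended 6.66 kb before its TSS, and one of 22.6 kb lay on the other side, over the promoters of the protease gene Adamts4 and the glycosyltransferase gene B4galt3 among others. The Pol2-S5p region over Apoa2 was 50.6 kb wide and the Pol2-S7p region 80.4 kb, and H3K27me3 covered 36.8% and 30.6% of them. The nearest neighbours Tomm40l, 2.54 kb away, and Fcer1g, 9.31 kb away, were Active, while Nr1i3 and Pcp4l1 held H3K27me3 without polymerase. Scores of the polymerase regions were below the median, and with regions above the median only, Apoa2 had no mark.

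Apob encodes the structural protein of chylomicrons and of very low-density and low-density lipoproteins. Its TSS is at 7977648 on chromosome 12, and a single H3K27me3 region of 3.2 kb (score 7.96), from 2.05 kb before to 1.15 kb after the TSS, covered 100% of the window and 2.94% of the body of this long gene. It was the only region of any mark within 100 kb on both sides. The nearest Pol2-S5p region was 116 kb away and the nearest Pol2-S7p region 146 kb. Of the 1179 protein-coding promoters with H3K27me3 alone, 82 (6.96%) likewise had no polymerase region within 100 kb. No protein-coding TSS lay within 50 kb. The inner start at 8012359 had no mark. The score was just under the median of the list (8.23), so that with regions above the median Apob was Inactive.

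Apoh, or beta-2-glycoprotein I, is a phospholipid-binding plasma protein. At the start used (108343354 on chromosome 11, plus strand) H3K27me3 covered 100% of the window, Pol2-S5p 87.7% and Pol2-S7p 77.7%, in regions of 4.4, 1.8 and 1.6 kb. This start lies 0.294 kb from that of Prkca, which runs the other way, and the same 3 regions made Prkca PRCa. Marks at the shared promoter cannot be assigned to either gene. The 3 other starts of Apoh, 37.8 to 51.9 kb downstream, had no region of any mark in their windows, and neither had the RefSeq start. The CpG ratio was 0.739 at the shared start and 0.216 to 0.233 at the others. At the start that RefSeq gives, Apoh was thus without any of the 3 marks.

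**Figure D4:**
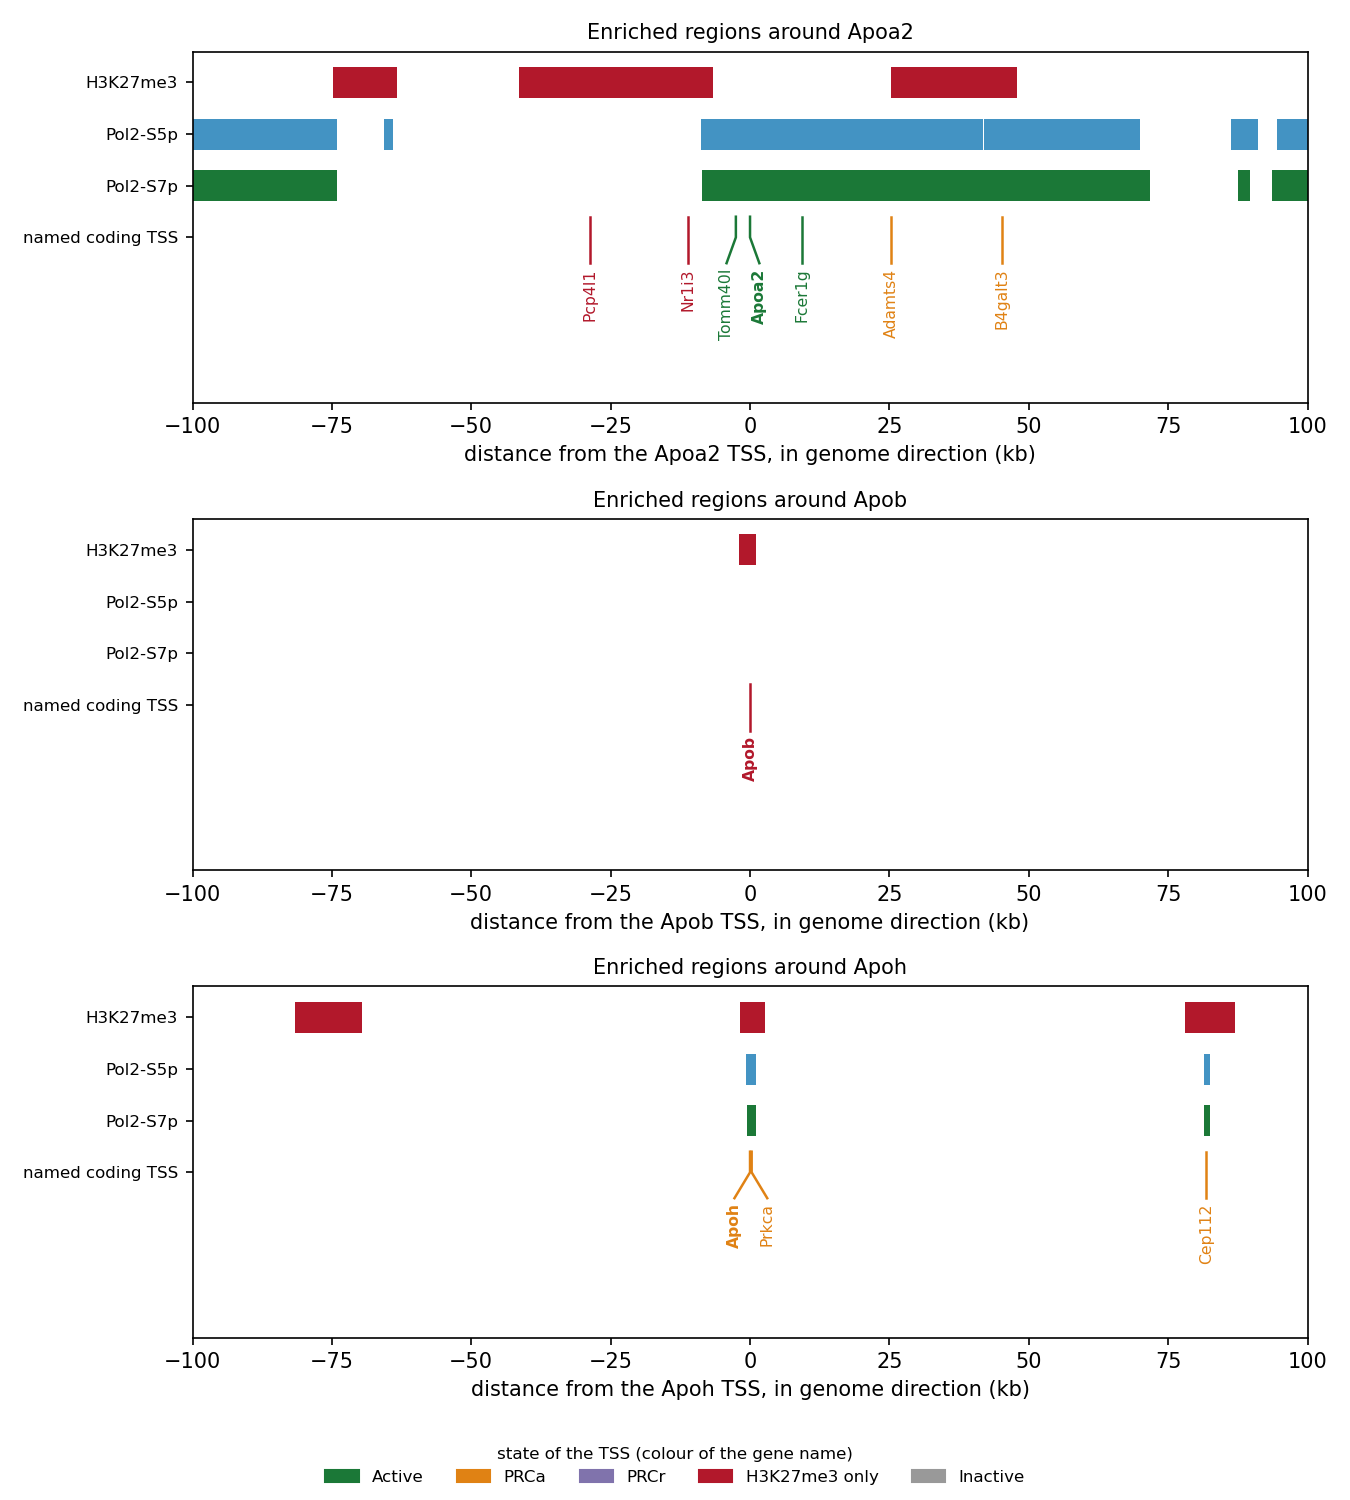
Enriched regions of H3K27me3, Pol2-S5p and Pol2-S7p within 100 kb of the TSSs of Apoa2 (top), Apob (middle) and Apoh (bottom), and the TSSs of named protein-coding genes coloured by promoter state. The horizontal axis is distance from the named TSS in kb along the genome. Apoa2 lies between H3K27me3 regions, in a polymerase stretch that runs into both, Apob has 1 region of 3.2 kb and nothing else, and Apoh shares 3 narrow regions with Prkca.

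Of the 9 genes with several starts, 4 (Apoc2, Apoa5, Apob and Apoh) had starts in different states, against 37.8% of 13497 protein-coding genes with several starts, a share near this background. Cover of the surroundings ranged widely. Within 100 kb on both sides of the TSS, H3K27me3 covered a median of 19.4% at the 10 genes (1.60% at Apob to 35.0% at Apoa5), against 7.60% at all protein-coding genes (quartiles 1.10% and 28.9%). Pol2-S5p covered a median of 31.2% (0% at Apob to 99.8% at Apoe, Apoc1 and Apoc2), against 17.9% (quartiles 2.00% and 50.8%), and Pol2-S7p 34.8% (0% at Apob to 100% at Apoc2), against 14.3% (quartiles 1.30% and 41.5%). Since the 4 genes of chromosome 9 and the 3 of chromosome 7 share their surroundings, these medians rest on 5 separate places.

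The rest of the lipoprotein pathway was read in the same way, in 71 genes of 5 lists. Of these, 22 were Active, 28 PRCa, 10 PRCr, 4 H3K27me3 alone, 1 Pol2-S5p alone and 6 Inactive, which puts H3K27me3 at 42 of 71, against 37.3% of protein-coding promoters, and PRCa at 39.4%, against 22.4%. With regions above the median score only, 7 of the 71 were PRCa, against 7.97%, and without H3K27me3 regions over 10 kb 8 were, against 9.34%. The first filter left 10 PRCr (against 5.11%) and 8 with H3K27me3 alone (against 9.89%). The second left 3 PRCr (against 3.13%) and 0 with H3K27me3 alone (against 2.51%). Among 14 other apolipoproteins, 7 were Active, including Apod, Apom and Apoc4, which lies under the same polymerase regions as Apoe, and 5 PRCa, including Clu, a chaperone carried by lipoproteins, and Saa2. Saa1 was PRCr and Saa4 Inactive. Of 15 receptors and their partners, 8 were PRCa, against 22.4% of protein-coding promoters, among them Lrp1 and Lrp8, which take up particles that carry Apoe. Lrp2, an endocytic receptor of the kidney and the yolk sac, was PRCr.

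Of 11 genes of assembly, lipid transfer and efflux, 5 were Active, including Lcat, which apolipoprotein A-I activates. The cholesterol exporters Abca1 and Abcg1 were PRCa, and Abcg5 and Abcg8 had H3K27me3 alone. Among 7 lipases and inhibitors, Angptl4 and Angptl8 were Active and Lpl, lipoprotein lipase itself, and Lipg were PRCr. Of 24 transcriptional regulators, 10 were PRCa, including Foxa2 and Foxa3, 5 PRCr, including Hnf4a and Foxa1, and 7 Active, including Srebf1 and Srebf2, the regulators of lipid synthesis. H3K27me3 was thus at 16 of the 24 regulators, against 37.3% of protein-coding promoters, where 31.6% were Active, 22.4% PRCa, 8.02% PRCr and 6.68% held H3K27me3 alone.

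Secreted liver proteins outside the pathway were counted for comparison, with no test. None of the 10 apolipoprotein genes was Inactive, with the filters above as exceptions, against 15 of these 26 genes, including Alb and Afp, and 27.8% of protein-coding promoters. H3K27me3 was at 6 of the 10 apolipoprotein genes, against 8 of the 26, which is near the 37.3% of protein-coding promoters. The apolipoprotein genes included 3 PRCa and 4 Active ones, against 0 PRCa and 3 Active ones (F2, Serpinc1 and Fetub) of the 26. Of protein-coding promoters, 22.4% were PRCa and 31.6% Active, and the apolipoprotein counts are near these shares. At the RefSeq starts of 8 apolipoprotein genes, 1 was PRCa, Apoa1.

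**Figure D5:**
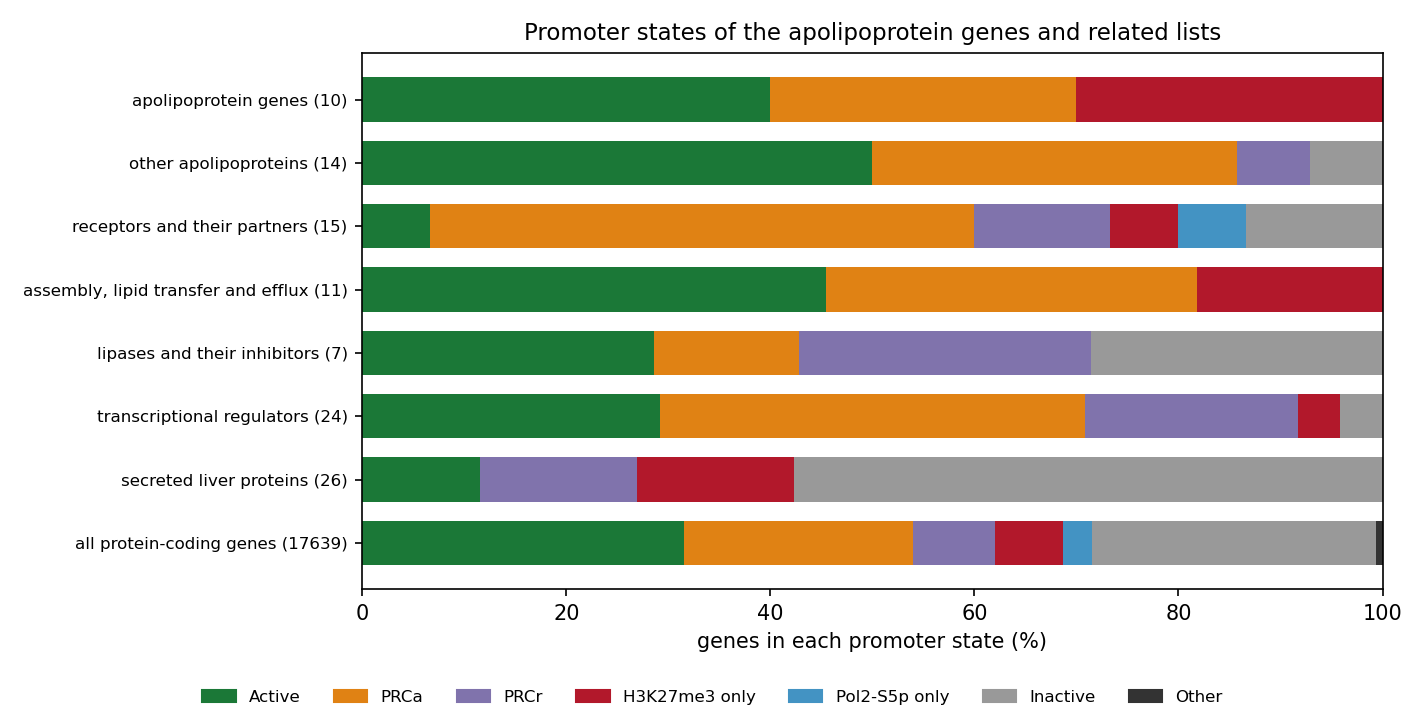
Percent of genes in each promoter state for the 10 apolipoprotein genes, the 5 lists of the lipoprotein pathway, secreted liver proteins and, in the lowest bar, 17639 protein-coding genes. The number of genes is in parentheses, and Other is the remaining combinations of marks. The apolipoprotein bar holds 4 Active, 3 PRCa and 3 H3K27me3-only genes of 10 and no Inactive gene, while 57.7% of secreted liver proteins were Inactive.

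The label of the cells was read against marker genes in the same lists. Of protein-coding promoters, 31.6% were Active, 22.4% PRCa, 8.02% PRCr, 6.68% with H3K27me3 alone and 27.8% Inactive. Of 15 pluripotency genes, 12 were Active and 3 PRCa. Of 14 markers of visceral endoderm, a yolk sac tissue that makes apolipoproteins, 0 were Active, 7 PRCa, 2 PRCr and 5 Inactive. Of 12 markers of feeder fibroblasts, 0 were Active, 3 PRCa, 2 PRCr, 2 with H3K27me3 alone and 5 Inactive, with Col3a1, Dcn, Lum and Fap among the last. Of 12 markers of hepatocytes, 0 were Active, 1 PRCr, 2 with H3K27me3 alone and 9 Inactive, Alb among them. Some of these counts, such as 3 PRCa of 12 fibroblast markers and 5 Inactive of 14 endoderm markers, lie near the shares of protein-coding promoters. The part of other cell types in the marks at the apolipoprotein genes was not tested.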

How the data were processed

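ChIP-seq libraries of H3K27me3, Pol2-S5p and Pol2-S7p, 1 each, were made from F123 mESCs. Per the labels and the study's methods, the authors aligned single-end reads with Bowtie2 2.3.4.3 to mm10, with variant positions masked, and called enriched regions with the Bayesian change-point peak finder. The deposited tables gave for each region a position, a width (an other kind of value, in bp, a multiple of 200) and a score of unstated unit, used here only to rank or filter within a list. They held 17342 (H3K27me3), 29222 (Pol2-S5p) and 22320 (Pol2-S7p) regions, of which 22.9% to 25.7% were over 10 kb.

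Genes were taken from GENCODE M21 on GRCm38 (mm10), and sequence and repeat masking from the same assembly. All region ends lay within its chromosomes. Of several starts, that with the longest Pol2-S5p cover of the 2 kb window was used, then Pol2-S7p cover, then the longest transcript. The study set a read threshold, which region lists do not allow. Promoter states need an overlap of 1 bp. Background shares are over 17639 protein-coding genes with unshared windows. The genes and lists were chosen with earlier results of these data known. All 10 genes are named, with genes within 50 kb, up to 4 genes per state of each list, and the 5 genes closest to Apoe in 9 values. Some genes that this rule gives are not reported here. Alternatives were other windows (1 kb and 4 kb), starts, overlaps and region filters. Functions were tested on simulated data. Python 3.11.15, NumPy 2.4.6 and Matplotlib 3.10.9 were used.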

Additional observations from a re-analysis of the deposited data

How the results depend on the processing

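Counts over the 10 apolipoprotein genes were computed under 9 other settings. Of 114 alternative values over all results, 78 stayed within 1.5 times the value reported. Some of these were counts of 0 both times, such as members with Pol2-S5p alone, and say nothing of stability. A PRCa count of 3 that became 2 was also taken as within that range. Windows of 1 kb or 4 kb, the start of the longest transcript, any annotated start and 50% overlap moved no count beyond 1.5 times. Below, shares of protein-coding promoters under the same filter are in parentheses where they were computed. Under these filters no share was computed for the polymerase marks or for gene bodies, so those counts have no background. With regions above the median score only, Pol2-S7p was at 4 of 10 promoters. Of the 10, 1 was PRCa (7.97%), 1 PRCr (5.11%) and 2 Inactive (44.9%), and 3 had over 50% of the body under Pol2-S7p. Without regions over 10 kb, H3K27me3 was at 3 (16.4%), Pol2-S5p at 1 and Pol2-S7p at 1. Then 0 were Active (12.7%), 1 PRCa (6.39%) and 7 Inactive (58.1%), and bodies over 50% covered numbered 1, 0 and 0 for the 3 marks. Leaving out regions over 10 kb removes the polymerase regions over the chromosome 7 cluster. Without H3K27me3 regions over 10 kb, H3K27me3 was at 3 (15.0%), alone at 1 (2.51%), and 2 were Inactive (32.0%). At the RefSeq starts of 8 genes, an alternative chosen after seeing the data, Pol2-S5p and Pol2-S7p were at 4 each, 1 was PRCa and 1 Inactive. Within 250 kb the median Pol2-S7p cover was 18.4%.

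Shares of protein-coding promoters under the same filter are in parentheses. Of the 71 pathway genes, regions above the median score gave 12 Active (19.3%), 7 PRCa (7.97%), 10 PRCr (5.11%), 8 with H3K27me3 alone (9.89%) and 23 Inactive (44.9%). Leaving out wide H3K27me3 regions gave 42 Active (44.7%), 8 PRCa (9.34%), 3 PRCr (3.13%), 0 with H3K27me3 alone (2.51%) and 10 Inactive (32.0%). Of the 26 liver proteins, the first filter gave 0 Active (19.3%), 0 PRCr (5.11%) and 1 with H3K27me3 alone (9.89%). The second gave 2 PRCr (3.13%) and 0 with H3K27me3 alone (2.51%). No paired analysis was possible because no result comes from a test. With 1 library per mark, depth and replicate error limit every call and were not measured here.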
